A study of Mus musculus with 6 samples.

Results

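Fos, Fosb and Jund, 3 genes of the AP-1 transcription factor family, were each represented by 1 of the 10080 probes on a 2-colour oligonucleotide array of mouse hypothalamus. The probes were found by their symbol in the platform's gene table, which names 1 gene for 9066 probes (8726 different genes), and none of the 3 symbols had a second probe. All 3 probes gave a ratio on all 6 arrays and so were among the 2316 probes that could be tested. The filter on low values removed no probe, since 2316 were also tested without it, so passing it says nothing about these genes. None of the 3 genes reached 2 times background in both channels on 6 arrays. The samples were hypothalami of male DBA/1 mice aged 8 weeks, a strain in which immunisation with type II collagen is used to model rheumatoid arthritis. The collagen group had been injected in the skin with type II collagen, 100 ul mixed with 100 ul of complete Freund's adjuvant, and the control group 200 ul of the adjuvant without collagen, so the dose of adjuvant differed as well. Both groups were given lipopolysaccharide (LPS), a bacterial inflammatory stimulus, at day 24, and no group without adjuvant or without LPS was analysed here. The labels leave the unit of the time of death unclear, and the interval after LPS is not known. No measure of arthritis was analysed here. Each array held collagen RNA against control RNA, and 3 biological replicates were each run on 2 arrays with the dyes exchanged. Whether a replicate was 1 mouse or a pool is not stated, and the p-values measure only the spread between these samples. In RNA of a whole tissue, fewer cells of a type and less RNA per cell cannot be told apart.

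AP-1 is a dimer of a Fos-family and a Jun-family protein, or of Jun-family proteins alone, joined by a leucine zipper and bound to DNA through the adjacent basic region. Fos is the classical immediate early gene: its transcript appears within minutes of calcium, cyclic AMP or growth factor signalling and is quickly degraded, and its induction in hypothalamic nuclei is widely used to map neurons activated by stress or by LPS. Fosb behaves as an immediate early gene too, and a truncated splice form of its protein is stable enough to accumulate under repeated stimulation. Jund is expressed at a steadier level in many tissues and supplies a ready dimer partner.

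The start regions of the 3 genes are shown because Fos induction is classically routed through a cyclic AMP response element (CRE) close to its start, where the protein CREB binds. Each sequence is the RefSeq window of 250 bases before to 50 after the annotated start in build GRCm38.p6, read 5′ to 3′ on the strand of the gene. Fos lies on the plus strand at chr12:85473640-85473939, Fosb on the minus strand at chr7:19309996-19310295 and Jund on the plus strand at chr8:70697489-70697788. Capitals mark every match, on either strand, to the CRE core TGACGT, the AP-1 motif TGANTCA or the TATA box TATAAA.
Fos: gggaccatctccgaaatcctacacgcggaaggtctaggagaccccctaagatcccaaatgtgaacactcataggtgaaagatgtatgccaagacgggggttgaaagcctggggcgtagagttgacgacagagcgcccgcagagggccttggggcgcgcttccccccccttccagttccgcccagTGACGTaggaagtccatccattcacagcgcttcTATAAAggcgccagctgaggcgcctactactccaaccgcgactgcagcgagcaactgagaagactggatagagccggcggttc
Fosb: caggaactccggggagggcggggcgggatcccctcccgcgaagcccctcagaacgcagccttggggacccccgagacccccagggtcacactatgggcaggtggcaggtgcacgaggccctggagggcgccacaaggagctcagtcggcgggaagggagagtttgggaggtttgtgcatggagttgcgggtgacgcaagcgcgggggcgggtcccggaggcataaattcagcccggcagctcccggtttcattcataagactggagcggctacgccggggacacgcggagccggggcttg
Jund: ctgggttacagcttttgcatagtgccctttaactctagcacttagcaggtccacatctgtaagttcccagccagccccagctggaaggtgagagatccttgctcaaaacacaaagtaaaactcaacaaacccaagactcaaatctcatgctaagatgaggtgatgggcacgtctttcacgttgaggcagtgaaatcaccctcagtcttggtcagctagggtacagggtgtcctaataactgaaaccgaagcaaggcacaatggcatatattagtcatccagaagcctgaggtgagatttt

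Fos alone of the 3 held any of these letters in its window. The CRE core began 66 bases before the annotated start and the TATA box 33 bases before it. Of 32851 RefSeq windows of this length, 7.51% held the CRE core, 7.81% the AP-1 motif and 13.6% the TATA box. A match is a description of the letters and not a site shown to be bound, and no match says only that these letters are absent from that window. The bases of the array probes themselves are not printed here. In the same build the genes span 85473890 to 85477274 on chromosome 12 (Fos), 19302696 to 19310118 on chromosome 7 (Fosb) and 70697739 to 70700616 on chromosome 8 (Jund). Where in each transcript the probe lies is not given in the sources used here.

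Directions below read channel A as Cy3 and channel B as Cy5, the order in which the labels list the dyes. If the channels were the other way round, every collagen direction would turn. The collagen-Cy3 array of replicate 1, named for the dye of its collagen sample, stood apart before any gene was considered: its log2 ratios had an SD of 1.66, against 0.38 to 0.67 on the other 5, and its median channel A background was 1353 per pixel, against 393 to 619. Between 4650 and 8562 spots per array had a ratio. The dye-exchanged arrays of replicates 1, 2 and 3 correlated at -0.20, -0.75 and -0.32 across the tested probes after turning to collagen over control, a description in which probes are not independent. Marker genes were read beside the tissue label as a description only. Between 46.1% and 84.9% of spots had a ratio on each array, so a ratio alone cannot settle the tissue. All 13 hypothalamic marker genes with a probe had a ratio on at least 1 array, and Oxt, Pmch, Gal, Gnrh1, Pdyn and Cartpt had one on all 6. Avp and Hcrt had a ratio on 3 arrays, Trh and Sst on 2 and Sim1 on 1. Of 7 general neuronal markers with a probe, 1 (Stmn2) was measured on all 6, and Snap25, Nefl and Nefm on 2. Pituitary markers Pitx1 and Tshb were measured on 6 and 5 arrays, and no endothelial marker was represented. Of markers with a probe, 2 of 4 for astrocytes and 2 of 2 for oligodendrocytes were measured on all 6 arrays. So were 3 of 4 for ependyma, tanycytes and choroid plexus and 1 of 5 for microglia and macrophages. The part of other tissue in the results was not tested.

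Fos had the largest mean difference of the 3 genes between collagen and control, but its arrays disagreed and it did not pass the test. The log2 ratio of collagen over control was -0.60 with collagen in Cy5 and 2.68 with collagen in Cy3 in replicate 1. It was 0.03 and -0.20 in replicate 2, and 1.17 and -0.07 in replicate 3, in the same order of dyes. Fos was thus above 0 on 3 arrays and below 0 on 3, and in replicates 1 and 3 one array of the pair carried the whole positive value. The replicate means were 1.04, -0.09 and 0.55, with a mean of 0.50 ± 0.57 (SD, n = 3), or 1.42-fold. Limma gave a 95% interval of -0.11 to 1.11 and an adjusted p of 0.872 (unadjusted 0.0891). With the collagen-Cy3 array of replicate 1 left out, the mean was -0.05. In that setting replicate 1 rested on the -0.60 of its other array, without dye exchange. Leaving out all of replicate 1 gave 0.23, and leaving out replicate 2 gave 0.80.

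**Figure D1:**
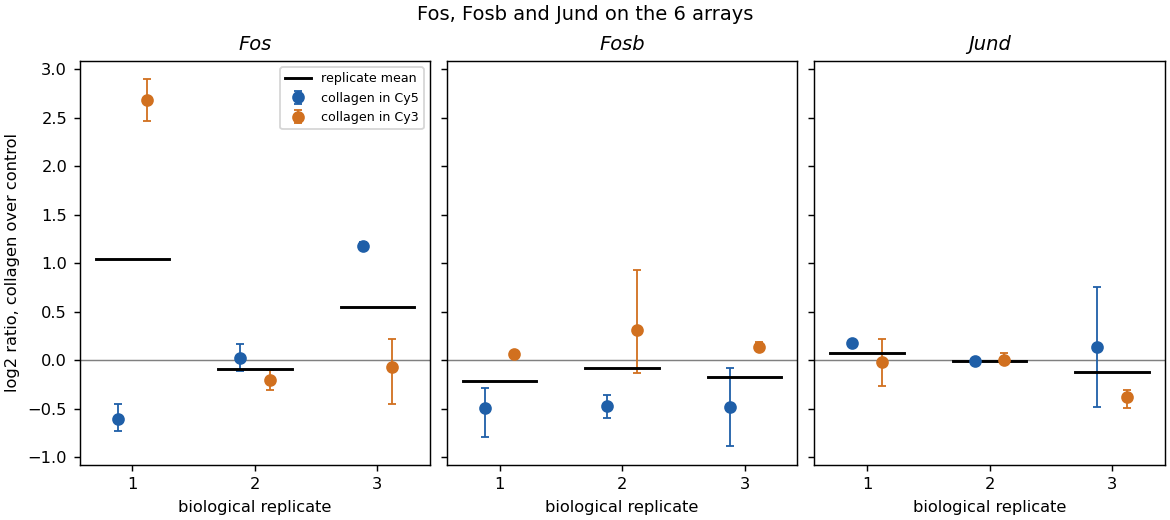
Log2 ratio of collagen over control (y axis) for each gene by biological replicate (x axis), with blue points for arrays with collagen in Cy5 and orange points for arrays with collagen in Cy3. Error bars run from the lowest to the highest of the scans with a ratio, and black lines are replicate means. Fos reaches 2.68 on 1 array, Fosb lies near -0.48 on all 3 blue points and above 0 on all 3 orange ones, and Jund stays between -0.37 and 0.17.

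Repeat scans of an array gave closer Fos ratios than separate arrays did, though scans share 1 spot and are not replicates. Spot area, intensity and local background differed between scans, and loess was run on each, so their spread is not scanner error alone. On the 2.68 array the 3 scans read 2.46, 2.69 and 2.89, and over the 6 arrays the SD between scans was 0.06 to 0.34, against an SD of 1.22 between the arrays. Readings per pixel are given after subtraction of the local background, with that background beside them. In the first scan of that array the collagen channel (A) read 6840 over a background of 5318, and the control channel (B) 640 over 489. On the other replicate 1 array the control channel (A) was at 749 over 419 and the collagen channel (B) at 199 over 202. Both channels on both arrays thus lay between 1.99 and 2.79 times the local background when the background is included, and the high collagen value came with a local background that was itself 5318 where the array's median was 1353. In replicate 2 the collagen and control readings were 1113 and 1397 with collagen in Cy5, and 896 and 1971 with collagen in Cy3. In replicate 3 they were 402 and 194, then 309 and 353, all below their local background of 409 to 589 per pixel. The 1.17 of replicate 3 is the mean of 1.22 and 1.13 in the 2 scans that were accepted, in both of which the control reading was under its local background.

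**Figure D2:**
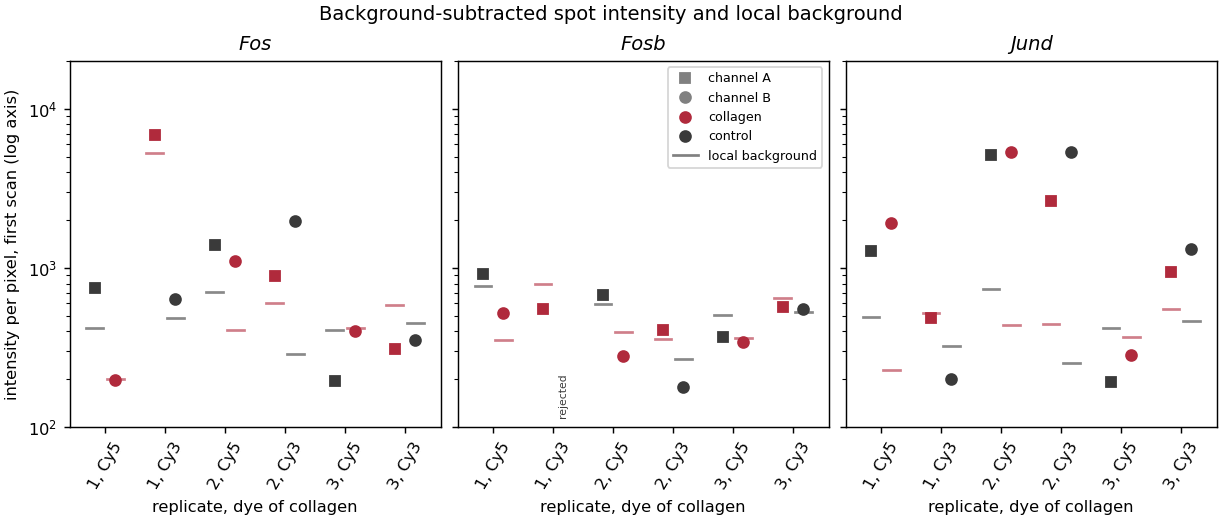
Background-subtracted intensity per pixel in the first scan (y axis, log scale) on each array (x axis, replicate and dye of the collagen sample). Squares are channel A, circles channel B, red is collagen, dark grey is control, and short lines are the local background. The highest Fos reading, 6840, sits just above a background of 5318, most Fosb readings lie near their background, and Jund is highest in replicate 2.

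The printed surroundings of the Fos spot moved with it on the array that decided its mean. Fos was printed in block row 2, block column 3 of 48 blocks. On the collagen-Cy3 array of replicate 1, the 7 measured spots within 2 rows and columns of Fos had a median log2 ratio of 3.50, above that of Fos itself, and 24 of 105 measured spots in its block exceeded it. That block had a median of -0.07 and an interquartile range of -1.34 to 2.59. On the collagen-Cy5 array of replicate 3, by contrast, 16 neighbours had a median of 0.31, and only 5 of 178 block spots (2.81%) exceeded the 1.17 of Fos. On the collagen-Cy5 array of replicate 1 the opposite held, with 76 of 84 block spots above Fos. Subtracting the block median on each array gave a Fos mean of 0.43 (limma adjusted p = 0.925), and loess within blocks 0.38 (adjusted p = 0.954). With a block median near 0 on the array with the highest Fos ratio, the subtraction left that ratio almost as it was. Median centring of each scan, in place of loess, gave a Fos mean of 0.14. The part of the local background in the Fos value was not tested.

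**Figure D3:**
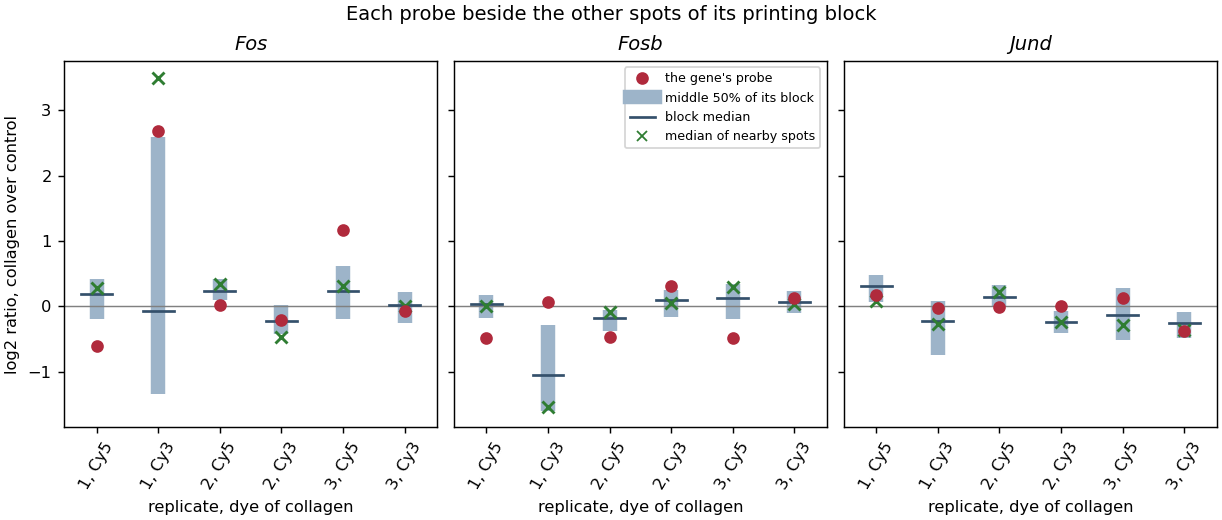
Log2 ratio of collagen over control (y axis) on each array (x axis) for the gene's probe (red), the interquartile range of the measured spots of its printing block (pale bars), their median (dark line) and the median of spots within 2 rows and columns (green cross). On the collagen-Cy3 array of replicate 1 the neighbours of Fos had a median of 3.50, and those of Fosb a median of -1.54.

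Fosb had even replicate means, all slightly lower with collagen, but its single arrays differed in sign by dye orientation. With collagen in Cy5 the log2 ratios of collagen over control were -0.49, -0.48 and -0.48 in replicates 1, 2 and 3. With collagen in Cy3 they were 0.07, 0.31 and 0.13, so the dye orientations did not overlap. By sign, that is channel B over channel A below 0 on all 6 arrays, which held for 148 of 2316 tested probes (6.39%). Lack of overlap in any other form was not counted. Across all tested probes the dye-exchanged arrays correlated negatively in every replicate. The replicate means were -0.21, -0.08 and -0.17, with a mean of -0.16 ± 0.07 (SD, n = 3), or 0.898-fold. Limma gave a 95% interval of -0.53 to 0.22 and an adjusted p of 0.872 (unadjusted 0.346), the SE of 0.15 being moderated by the wider spread of other probes. Loess within blocks put the mean at -0.05, and subtraction of the block median put it at -0.0046.

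Read as channel B over channel A, Fosb was below 0 on all 6 arrays, from -0.49 to -0.07, with a mean of -0.33 ± 0.06 (SD, n = 3 replicates). That property, counted in this direction only, was shared by 148 of the 2316 tested probes (6.39%). The same sign of collagen over control on all 6 arrays, counted in either direction, was found for 18 (0.777%). That group held 0 of the 3 genes. The channel ratio of Fosb did not pass its own test (limma adjusted p = 0.651, unadjusted 0.173), which was added after the pattern had been seen and which 10 probes (0.432%) passed. Over the alternatives the channel mean of Fosb ran from -0.75 with median centring (limma adjusted p = 0.372, unadjusted 0.0484) to -0.29 without replicate 2 (adjusted p = 0.884). With loess within blocks it was -0.39 (adjusted p = 0.386, unadjusted 0.0126). With loess within blocks the pattern by orientation was the same: the log2 ratio of collagen over control was -0.38, -0.37 and -0.58 with collagen in Cy5, and 0.49, 0.53 and 0.00056 with collagen in Cy3. In the authors' deposited table, which has no stated base and was read as natural logs of collagen over control, Fosb also stood at -0.19, -0.06 and -0.41 with collagen in Cy5 and at 0.19 and 0.0076 on the arrays of replicates 2 and 3 with collagen in Cy3. A difference between channels cancels in the mean of a replicate when the dyes are exchanged as labelled.

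The Fosb readings were low against their local background, and the normalized scans differed. Channel A was accepted in all 18 scans and channel B in 14 (77.8%). For Fos and for Jund both channels were accepted in 17 of the 18 scans. Over all scans the channel A reading including background was 1.64 to 2.51 times the local background, and channel B up to 2.47 times. On the collagen-Cy3 array of replicate 1, channel B passed in 1 of 3 scans, and 0.07 rests on that scan. The neighbours there had a median of -1.54 over 4 spots, and 14 of 75 block spots exceeded Fosb. After loess, the scans with a ratio ran from -0.13 to 0.93 on the collagen-Cy3 array of replicate 2. They ran from -0.89 to -0.08 on the collagen-Cy5 array of replicate 3. Before loess the scans of that replicate 3 array read -0.106 and -0.066, so their gap appeared only after the loess of each scan. In the first scan the collagen and control readings per pixel were 519 and 923 in replicate 1 with collagen in Cy5, 278 and 679, then 409 and 179, in replicate 2, and 345 and 371, then 570 and 553, in replicate 3. Local backgrounds there were 268 to 771 per pixel, so the even replicate means came from readings that were mostly of the order of their background.

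Jund had the mean nearest to 0 of the 3 genes. The log2 ratio of collagen over control was 0.17 and -0.02 in replicate 1, -0.0068 and 0.0018 in replicate 2, and 0.13 and -0.37 in replicate 3, with collagen in Cy5 given first. The arrays of replicate 2 were nearly level, and the widest gap was in replicate 3. The mean was -0.02 ± 0.10 (SD, n = 3), or 0.990-fold, with a 95% interval of -0.40 to 0.37 (limma adjusted p = 0.98, unadjusted 0.925). The interval covers folds of 0.760 to 1.29, so the data leave room for a change of either sign within that range. The smallest change detectable with 3 replicates was not computed. Its sign turned under several settings, from 0.10 with collagen in Cy5 only to -0.13 with collagen in Cy3 only, and no direction is given. With 1 dye orientation only, a channel difference does not cancel.

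The brightness of Jund differed between arrays, also within a replicate, far more than its ratio did. These readings were not normalized between arrays. In the first scan of replicate 2 it read 5367 per pixel in collagen and 5111 in control with collagen in Cy5, and 2649 and 5339 with collagen in Cy3. Readings including background were there 6.98 to 22.2 times the local background. In replicate 1 collagen and control were at 1919 and 1281 with collagen in Cy5, and at 485 and 202 with collagen in Cy3. In replicate 3 they were at 283 and 193 with collagen in Cy5, where the scans with a ratio read -0.48 and 0.75, and at 939 and 1321 with collagen in Cy3. The SD between scans was 0.03 and 0.07 on the bright replicate 2 arrays and 0.01 on the collagen-Cy5 array of replicate 1. It was 0.87, over 2 scans, on the dim collagen-Cy5 array of replicate 3. On the replicate 3 array with the lowest ratio, -0.37, the 23 measured neighbours had a median of -0.36 and the block a median of -0.26, so Jund was level with its surroundings there.

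None of the 3 genes passed the threshold, where 0 of 2316 tested probes (0%) did by limma and 25 (1.08%) had an unadjusted p under 0.05. None of the 3 was among those 25. Of all tested probes, 5.4% had a mean difference larger in size than that of Fos, 49.9% larger than that of Fosb and 94.9% larger than that of Jund. The median log2 ratio of all tested probes was -0.09, and 33.7% were above 0, which is the level against which the signs are to be read. In the authors' deposited table the Fos values, read as natural logs and given here as log2, were -1.06 and 3.32 in replicate 1. They were -0.22 and 0.08 in replicate 2, and 0.09 and 0.22 in replicate 3. The high array of replicate 1 thus recurred and the 1.17 of replicate 3 did not. Jund ranged there from -0.24 to 0.23 in log2.

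**Figure D4:**
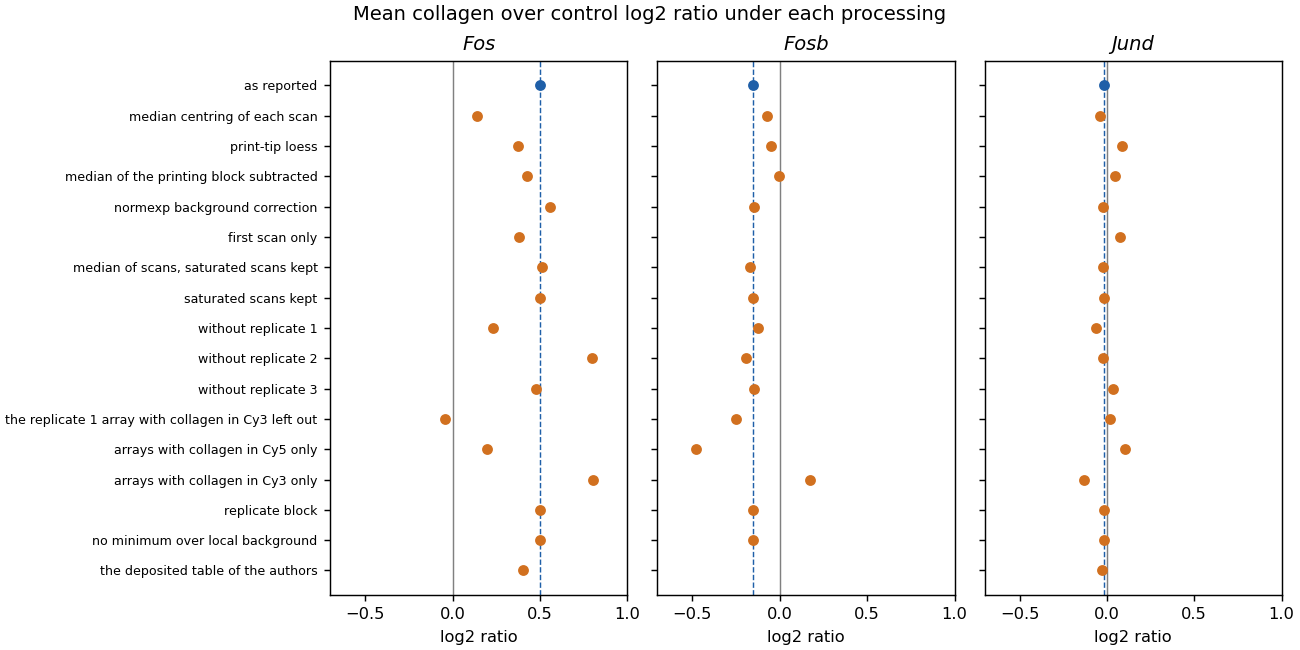
Mean log2 ratio of collagen over control (x axis) for each gene under each processing (y axis). The blue point and dashed line are the values reported here, 0.50, -0.16 and -0.02, and orange points are the alternatives. A setting that gave no value has no point. Fos lies above 0 in all but 1 setting, where the collagen-Cy3 array of replicate 1 is left out and that replicate has no dye exchange.

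The other genes of the pathway were taken from a list of 54 AP-1 and immediate early genes with their upstream kinases and factors, chosen with earlier results of these data known. Of these, 27 had a named probe and 7 were measured on all 6 arrays: the 3 members, the CREB gene Creb1, the AP-1 factor gene Batf3, the serum response factor gene Srf and Dusp1, which encodes an inducible phosphatase of MAP kinases. With limma 0 of the 7 passed, and 0 had an unadjusted p under 0.05. Their log2 ratios were positive for 2 and negative for 5, where 33.7% of all tested probes were positive. The median was -0.04, beside -0.09 over all tested probes. Leaving out replicate 1 left 3 of the 7 negative. The matching share of all tested probes was not counted, so that number says nothing about the list.

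Creb1, whose product binds the CRE of Fos, had a mean of 0.71 ± 0.43 (SE, n = 3; limma adjusted p = 0.872) from replicate means of 2.06, 0.16 and -0.09. Its array values were 0.18 and 3.94 in replicate 1, 0.70 and -0.37 in replicate 2, and -0.35 and 0.16 in replicate 3, collagen in Cy5 first. The single value of 3.94 set the mean, and without replicate 1 it was 0.04. Dusp1 and Batf3 were displaced the other way on the same array, at -1.67 and -1.29, and the other 5 arrays held Dusp1 between -0.04 and 0.33 and Batf3 between -0.05 and 0.52. Their means were -0.14 ± 0.25 and -0.05 ± 0.20 (SE). Srf, which binds the serum response element of Fos, was at -0.04 ± 0.16 (SE), with array values from -0.67 to 0.38. None of these genes had one sign on all 6 arrays.

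**Figure D5:**
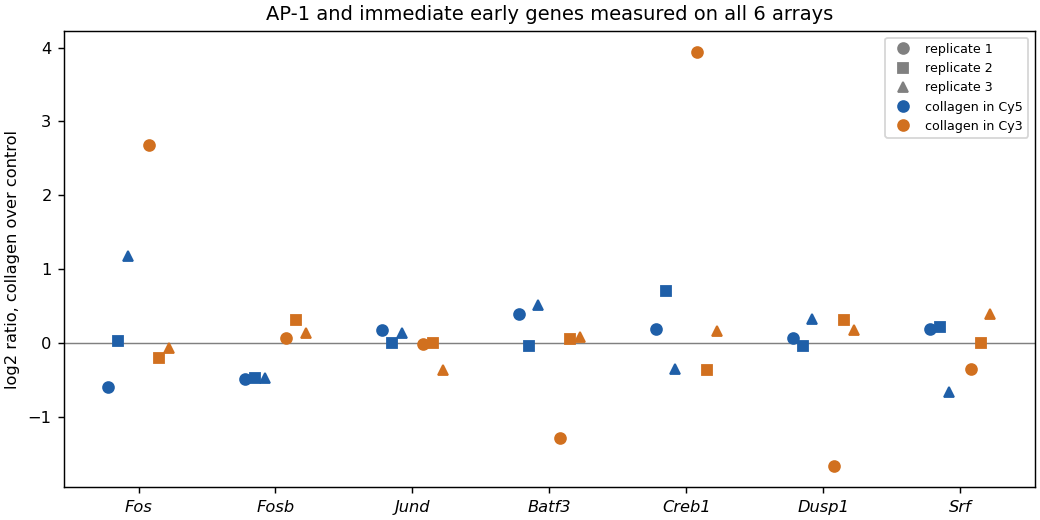
Log2 ratio of collagen over control (y axis) for the 7 genes of the list measured on all 6 arrays (x axis), with marker shape for the replicate and colour for the dye of the collagen sample. The orange circles, the collagen-Cy3 array of replicate 1, hold the extreme values of Fos (2.68), Creb1 (3.94), Dusp1 (-1.67) and Batf3 (-1.29).

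Of the 20 listed genes that were not tested, 19 had a ratio on 1 to 5 arrays and Egr3 on none. Fosl2, the only other Fos-family gene with a named probe, had ratios on 4 arrays, from -0.31 to 0.81. Arc, a synaptic immediate early gene, had ratios on 5 arrays, with a median of 0.03 and values from -0.40 to 4.603. Egr2, Nr4a2, Nr4a3, Atf3 and Egr4 were measured on 1 or 2 arrays. Zfp36, which encodes a destabiliser of cytokine transcripts, was measured on 4 arrays with a median of -0.11, and Maff on 5 with a median of -0.19. Jun, Junb, Fosl1, Egr1, Npas4 and Nr4a1 had no named probe in the table used here and were not analysed.

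The probes most like each member over the 6 arrays were sought among 2129 other tested probes with a gene name, by Pearson's r of the log2 ratio of collagen over control, as a description over 6 points that share arrays. Fos was most like Omg (r = 0.992), Scg3 (0.985) and Mak16 (0.983). These were printed in block column 4 of 4 and read 0.88, 1.85 and 3.798 on the collagen-Cy3 array of replicate 1. In all, 58 probes had an r over 0.9 with Fos. Fosb was most like Chst13 (0.996), 2310001K24Rik (0.996) and Chrm4 (0.993), with 68 probes over 0.9. Those named were in block columns 3, 1 and 2 and read 1.74, 0.33 and 0.57 on the same array. Jund was most like Mgat3 (0.932), Afdn (0.914) and Dapk3 (0.907), the only 3 over 0.9. They were in block columns 3, 1 and 3 and read 0.05, -0.86 and -0.02 on the same array. Between the members r was 0.13 for Fos and Fosb, 0.06 for Fos and Jund and -0.60 for Fosb and Jund, with 6 arrays behind each value.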

How the data were processed

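Hypothalamic RNA was hybridised to 6 in-house 2-colour arrays, 3 files per array read as repeat scans. Per the file headers, the authors deposited spot intensities already corrected for background. From their values these are sums over the pixels of a spot, with 0 where a channel was rejected. The deposited saturation factor, a fraction, was read as the share of unsaturated pixels. The authors' deposited table holds 1 log ratio per probe and array, read as a natural log, with base and direction not stated. Its column medians lay between -0.0181 and 0.0015. The quantification software is not given in the sources used here.

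Scan rows sorted by block and spot position gave the probe order. With it, spots with a ratio matched those of the authors' table at r = 0.62 to 0.90. The ratios themselves correlated at 0.50 to 0.77, lowest on the collagen-Cy3 array of replicate 1. Log2 ratios of channel B over A were smoothed by loess (span 0.3) per scan. Scans were averaged, and a scan with saturated pixels was left out if another had none. Signs were set so that positive means more collagen signal, and both arrays of each replicate were averaged. Probes needed a ratio on 6 arrays and 1.5 times local background on at least 4. The mean of 3 replicates was tested against 0 with limma 3.58.1 in R 4.3.3 across all tested probes, p-values being adjusted by Benjamini-Hochberg and called at 0.05. Figures used matplotlib 3.10.9. The channel B over A contrast was added after seeing the data. Normexp, planned as an alternative, was run on the intensities with the deposited background added back. Other alternatives changed normalization, scans, filters and replicates. Functions were tested on simulated data.

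Replicate numbers come from the sample titles, and the design text gives the pairs as dye swaps. After removing orientation means, same-numbered arrays correlated at -0.12, -0.38 and 0.09. Members, lists and alternatives were chosen with earlier results of these data known. The rule for named genes took the 3 members, list genes measured on 6 arrays and the 3 probes most like each member. The untested list genes given by name were picked with their values in view. Signals near background and the number of arrays limit the precision.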

Additional observations from a re-analysis of the deposited data

Results flagged for a closer look

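On 4 of the 7 AP-1 and immediate early genes measured on 6 arrays, 1 array lay apart from the other 5 by more than Dixon's criterion for 6 values allows. These were Jund at -0.37 on the collagen-Cy3 array of replicate 3, and Batf3 at -1.29, Creb1 at 3.94 and Dusp1 at -1.67, each on the collagen-Cy3 array of replicate 1. By the same criterion 532 of all 2316 tested probes (23%) had 1 array apart, and for 494 of these it was that replicate 1 array, whose ratios had an SD of 1.66. Chance sets apart about 1 in 20 independent groups, and these arrays are paired. Fos, whose highest value of 2.68 was on the same replicate 1 array, was not set apart, because its replicate 3 value of 1.17 lay between.

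Fosb moved in opposite directions in the 2 dye orientations. The mean of the 3 arrays with collagen in Cy5 was -0.48 and that of the 3 with collagen in Cy3 was 0.17, a difference of -0.65 in the log2 ratio of collagen over control. Tested as the dye term of the limma fit with a replicate block, the difference had an adjusted p of 0.483 (unadjusted 0.0663).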

How the results depend on the processing

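Among the alternatives, Fos stayed above 0 in 15 of 16, from 0.14 with median centring to 0.81 with collagen in Cy3 only. It turned to -0.046 with the collagen-Cy3 array of replicate 1 left out, where replicate 1 had no dye exchange. Fosb stayed below 0 in 13 of 14, turning to 0.17 with collagen in Cy3 only. These counts include settings that could not change the Fos and Fosb means. They were the replicate block, no minimum over local background, and saturated scans kept, as neither gene had a saturated scan with a ratio. Jund turned in 6 of 16: to 0.088 with print-tip loess, 0.047 with block medians subtracted, 0.073 with the first scan only, 0.018 with that array left out, 0.10 with collagen in Cy5 only, and within -0.061 to 0.037 when single replicates were left out. No member passed the threshold in any setting that gave it a value, the smallest adjusted p being 0.206, for Fosb with collagen in Cy5 only. The count of tested probes past the threshold was 0 in every alternative but 2. It was 34 with collagen in Cy5 only, and 0 to 30 when single replicates were left out, the 30 being without replicate 3. With 1 dye orientation only, a collagen difference and a channel difference cannot be told apart. This holds for the 34 probes, the 0.206 of Fosb and each value with collagen in Cy5 or Cy3 only. Counts at an unadjusted p under 0.05 ran from 2 to 365 against 25 as reported. With a replicate block the 3 genes kept their means, at 0.50, -0.16 and -0.02, which a block on balanced pairs cannot change. The block changed no call. For channel B over A, 6 probes passed with the block and 8 with print-tip loess, 11 with block medians subtracted, 37 with median centring, 56 with normexp, and 30 to 111 with single replicates left out, against 10 as reported. Its sign turned for Jund, to -0.082 with print-tip loess and -0.063 with block medians subtracted, and for Fos without replicate 1, between -0.76 and 0.37 over the replicates left out. The cause of these changes was not tested. Fosb could not be fitted with the first scan only or from the authors' table, where it has values on 5 arrays, and none of the 3 genes reached 2 times background in both channels on 6 arrays.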
